A study of Rattus norvegicus with 6 samples.

Results

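Cyp24a1 encodes vitamin D 24-hydroxylase, a mitochondrial cytochrome P450 that hydroxylates calcitriol, the active form of vitamin D, and its precursor calcidiol, and so starts their breakdown. In the kidney the enzyme is found mainly in the proximal tubule, where it opposes the 1-alpha-hydroxylase that makes calcitriol. Its gene is a classical target of the vitamin D receptor: calcitriol and the phosphate-regulating hormone FGF23 raise its transcript in the kidney, and parathyroid hormone lowers it. The gene was found by its symbol in the study's list of changed mRNAs, where it was 1 of 100 named genes. That list was chosen by the difference between low birth weight (LBW) and control kidneys on these same arrays, so the difference of Cyp24a1 between the groups is described here and was not tested. It was represented by 2 of the 40351 probes of the array, with 1 spot each.

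The study asked which long non-coding RNAs differ in the kidneys of rats with low birth weight and a low nephron number. Its arrays measured mRNAs as well. The LBW group was 3 male Sprague Dawley rats whose dams ate a low-protein diet through pregnancy and nursing, and the control group was 3 male rats of dams on a normal-protein diet. Whole kidney was taken at postnatal day 10, and the RNA of each rat was labelled with Cy3 and hybridized to 1 one-colour Agilent array. Litter is not given in the sources used here, so the spread in each group is that between these 3 rats, and precision is limited by there being 3 arrays per group. In whole kidney, fewer cells of a type and less RNA per cell cannot be told apart.

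The deposited processed signal is the intensity of a spot after the scanner software subtracted its background. Probe A_44_P235892 had processed signals of 75.4, 27.6 and 98.4 in controls 1, 2 and 3. Its signals were 17.1, 22.0 and 6.69 in LBW 1, 2 and 3. All 3 LBW signals lay below all 3 control signals, and the lowest control, control 2, was close to the highest LBW array, LBW 2. The software's flag called the spot well above background on 5 of 6 arrays, and the exception was LBW 3.

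Probe A_64_P139422, listed by the study under the same symbol, had processed signals of 103, 44.0 and 129 in controls 1, 2 and 3. Its signals were 27.1, 33.2 and 13.8 in LBW 1, 2 and 3. It was well above background on all 6 arrays, so for this probe every array gave a measured level. The order of the 6 arrays was the same as for A_44_P235892: LBW 3 was lowest, then LBW 1, LBW 2, control 2, control 1 and control 3.

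To compare arrays, processed signals were quantile normalized and put on the log2 scale, where a difference of 1 is 2-fold. The normalized log2 levels of A_44_P235892 were 6.08, 4.84 and 6.64 in controls 1, 2 and 3 and 4.02, 4.40 and 3.00 in LBW 1, 2 and 3. The control mean was 5.86 ± 0.92 and the LBW mean 3.81 ± 0.72 (SD, n = 3 each). Its level in LBW kidneys was 4.14-fold lower, a log2 difference of -2.05 with a standard error of 0.68. That value includes LBW 3, where the spot was not well above background, and the level was 3.13-fold lower without it. With 16 added to each normalized signal it was 2.47-fold lower, and with normexp background correction and an offset of 50 it was 1.63-fold lower.

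The normalized log2 levels of A_64_P139422 were 6.53, 5.51 and 7.03 in controls 1, 2 and 3 and 4.67, 4.99 and 4.03 in LBW 1, 2 and 3. The control mean was 6.36 ± 0.78 and the LBW mean 4.56 ± 0.49 (SD, n = 3 each). Its level in LBW kidneys was 3.47-fold lower, a log2 difference of -1.79 with a standard error of 0.53. It was 2.48-fold lower with 16 added to each normalized signal and 1.77-fold lower with normexp background correction and an offset of 50.

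**Figure D1:**
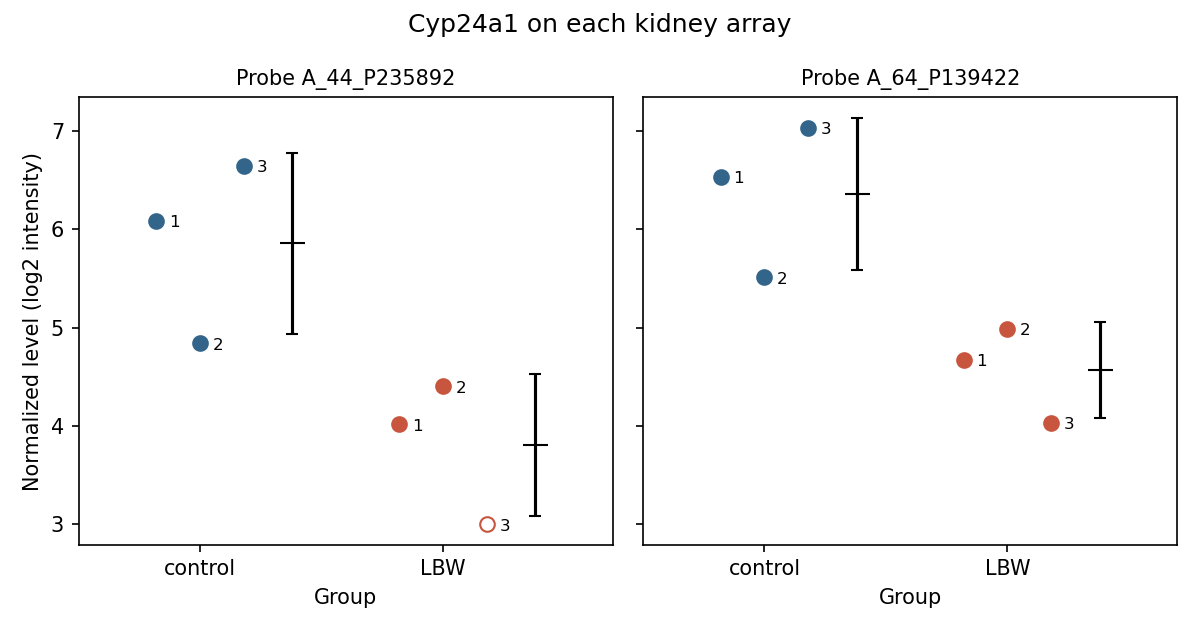
Normalized log2 level of each Cyp24a1 probe on each array, with points numbered by replicate and coloured by group; the open point was not well above background, and the black bars give the mean and SD of 3 arrays. The LBW arrays lie between 3.00 and 4.40 for A_44_P235892 and between 4.03 and 4.99 for A_64_P139422, in each case below the control arrays.

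The groups were separated by a narrow gap beside a wide spread within each. Between control 2 and LBW 2, the nearest arrays of the groups, A_44_P235892 differed by 0.44 and A_64_P139422 by 0.52 on the log2 scale. Among the controls themselves, A_44_P235892 ranged 3.49-fold and A_64_P139422 ranged 2.87-fold. Among the LBW arrays A_64_P139422 ranged 1.94-fold. The range of A_44_P235892, 2.65-fold, ends at LBW 3, where the spot was not well above background, so it is not exact. With normexp background correction and an offset of 50, A_44_P235892 lay between 5.95 and 6.27 in LBW arrays and between 6.36 and 7.24 in controls. A_64_P139422 then lay between 6.18 and 6.45 in LBW arrays and between 6.68 and 7.56 in controls. The 2 of 2 Cyp24a1 probes without overlap of the groups stood beside 12.2% of all 33608 tested probes for which every LBW array lay below every control array. At least 2-fold lower in LBW kidneys with an unadjusted limma p of at most 0.05 were 0.452% of the tested probes, 152 in number. That number was 24 with normexp background correction, 87 among probes well above background on all 6 arrays, 243 with slide row as a block and 245 with no filter on dim probes. At a limma p adjusted over all tested probes under 0.05, 0.143% were called in either direction. As Cyp24a1 was selected on this contrast, nothing was read from these shares about it.

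With the processed signals, the SD of Cyp24a1 within a group was high among probes of all intensities. It was not compared with that of probes as dim as these, so the shares below do not set the gene apart from other dim probes. In the control group the SD of A_44_P235892 was above that of 99.5% of 33537 probes with a value on every array, and that of A_64_P139422 above 98.7%, where the median SD was 0.17. In the LBW group these shares were 99.1% and 96.8%, with a median SD of 0.11. The SDs moved with single arrays. In the control group they were 0.40 for A_44_P235892 and 0.35 for A_64_P139422 without control 2, and 1.28 and 1.08 without control 1. In the LBW group they were 0.27 and 0.22 without LBW 3, and 0.99 and 0.68 without LBW 1. With normexp background correction and an offset of 50, the SDs were 0.44 for either probe in the control group. In the LBW group they were then 0.16 for A_44_P235892 and 0.14 for A_64_P139422. With only 16 added to each normalized signal, they were 0.70 and 0.64 in the controls and 0.32 and 0.28 in the LBW group. The part of the background correction in the lower SDs, apart from its offset, was not tested. The scanner software's own error of a spot was between 10.1% and 11.5% of the signal for A_44_P235892 on the control arrays and between 10.1% and 10.6% for A_64_P139422. On LBW 3, where the signal was lowest, the error was 27.3% for A_44_P235892 and 15.4% for A_64_P139422.

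The 2 probes moved together from rat to rat within each group. Measured from the mean of its group, control 2 was at -1.02 for A_44_P235892 and -0.85 for A_64_P139422, and control 3 was at 0.79 and 0.67. LBW 3 was at -0.81 and -0.53, and LBW 2 was at 0.60 and 0.42. The widest disagreement between the probes in any such deviation was 0.27, on LBW 3, the array on which A_44_P235892 was not well above background. The log2 differences between the groups were 0.26 apart. In the 6 other genes with several probes on the study's list, the probes of a gene were between 0.09 apart, for the transferrin receptor Tfrc, and 1.21 apart, for the interferon-induced protease Usp18.

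The probes are 60 bases long and are shown because both carry the same ranking of the rats while sharing no run of over 5 bases. The study's list places both on chromosome 3, at chr3:161540181-161540240 for A_44_P235892 and chr3:161542181-161542240 for A_64_P139422, written here from the lower to the higher coordinate. The list itself gives the higher coordinate as the start of each, as for the minus strand. It names no genome build, and the scanner headers name rn4 as that of the array. The positions are 2000 bases apart. In A_64_P139422 the capitals mark 19 codons of its only forward reading frame without a stop codon, whereas A_44_P235892 has a stop codon in each of its 3 forward frames and is shown by its first 30 bases, all in lower case.
A_64_P139422: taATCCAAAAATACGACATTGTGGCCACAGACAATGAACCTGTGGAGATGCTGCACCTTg
A_44_P235892 (first 30 bases): atataaagacatgaggtacccaatttagta
Of the bases, 45% were G or C in A_64_P139422 and 35% in A_44_P235892. The longest run that either shared with another probe of the array, on either strand, was 13 bases for A_64_P139422 and 14 bases for A_44_P235892. In the RefSeq table of the GRCr8 assembly, the nearest protein-coding genes on either side of Cyp24a1 are Bcas1 and Pfdn4, and the next are Zfp217 and Dok5. The study's list, which gave the gene names used here, named 0 of these 4 neighbours, and their levels are not analysed here.

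The size of the difference depended on the arrays used, while its direction could not turn with 1 array left out, since the groups did not overlap. Over the 6 ways to leave out 1 array, the log2 difference of A_44_P235892 lay between -2.56 and -1.65, and that of A_64_P139422 between -2.22 and -1.46. For both probes the difference was widest without control 2, the lowest control, with 5.89-fold and 4.65-fold lower levels in LBW kidneys. Without LBW 3, the array on which A_44_P235892 was not well above background, the levels were 3.13-fold and 2.88-fold lower. Without control 3, the highest array, they were 3.15-fold and 2.75-fold lower.

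All arrays lay on 1 slide, with the controls and LBW 1 in row 1 and LBW 2 and LBW 3 in row 2. Within row 1, where 1 LBW array was set against 3 controls, the log2 difference was -1.84 for A_44_P235892 and -1.68 for A_64_P139422. The spots within 3 rows and 3 columns of each Cyp24a1 spot, 44 for each, had log2 differences with a median of -0.0007 and a lowest value of -1.43 around A_44_P235892, and a median of -0.04 and a lowest value of -0.75 around A_64_P139422. The part of slide position in the Cyp24a1 difference was not tested. The local background was between 17 and 18 in the controls and between 16 and 19 in the LBW arrays.

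The fold change was smaller with normexp background correction and an offset, and also with a constant added to each normalized signal. On the LBW arrays the raw mean of A_44_P235892 was 37.9, 42.6 and 27.9, not far above that background. With normexp background correction and an offset of 50, the levels in LBW kidneys were 1.63-fold lower for A_44_P235892 and 1.77-fold lower for A_64_P139422. With 16 added to each normalized signal they were 2.47-fold and 2.48-fold lower. The part of the background correction in the normexp values, apart from its offset, was not tested.

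**Figure D2:**
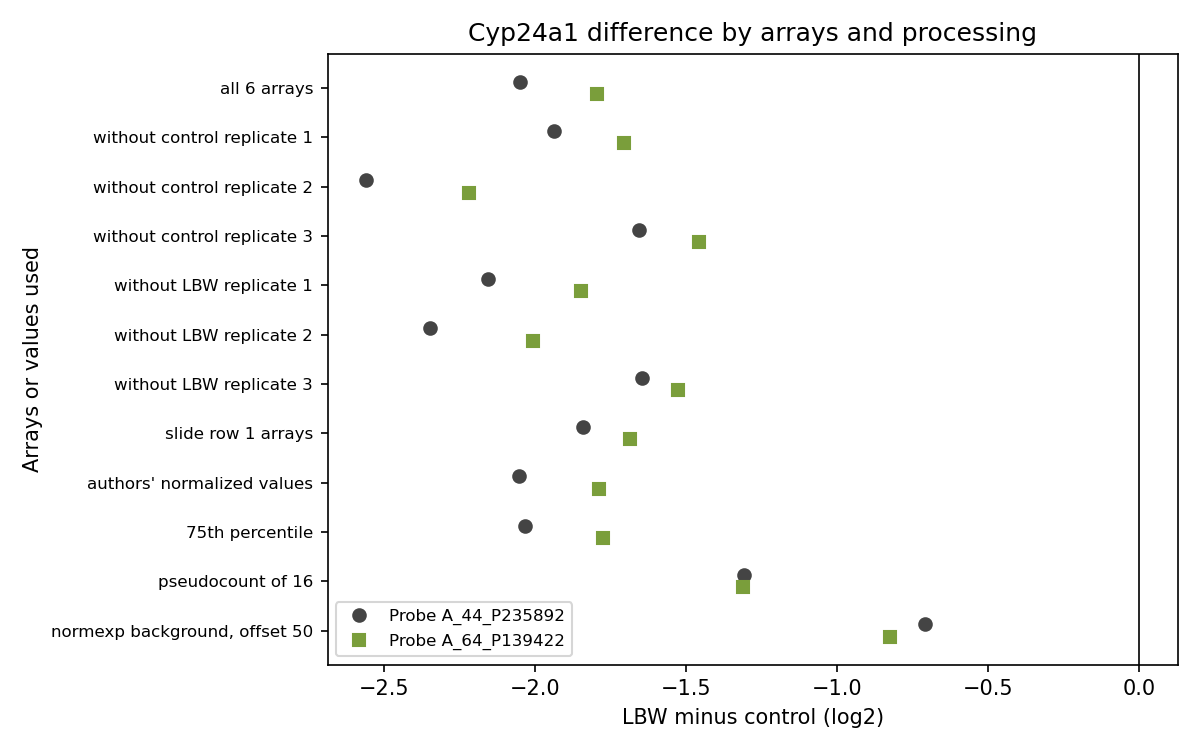
Log2 difference of LBW minus control for each Cyp24a1 probe, with all 6 arrays, with single arrays left out, within slide row 1, and under other processing; the vertical line is at 0. Every point lies below 0, from -2.56 without control 2 to -0.71 with normexp background correction and an offset of 50, both for A_44_P235892.

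The transcript most like Cyp24a1 over the 6 arrays was that of Rpl10l, a ribosomal protein L10-like gene. Likeness was the Pearson correlation with the mean log2 level of the 2 Cyp24a1 probes over 6 arrays, for 33535 other probes. The 8 highest correlations were between 0.989 and 0.998, and all 8 probes were lower in LBW kidneys, by log2 differences from -1.72 to -0.18. Rpl10l was the only named one and ranked 1, and the other 7 probes carried no gene name here. Because the arrays fall into 2 groups, a correlation over all 6 partly reflects the difference between the groups.

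Rpl10l was well above background on all 6 arrays. Its normalized log2 levels were 7.32, 6.18 and 7.72 in controls 1, 2 and 3 and 5.50, 5.71 and 4.85 in LBW 1, 2 and 3. The ranking of the arrays was that of Cyp24a1. Its control mean was 7.07 ± 0.80 and its LBW mean 5.35 ± 0.45 (SD, n = 3 each), a log2 difference of -1.72. It was itself on the study's list, chosen by the same contrast.

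After each group was centred on its own mean, which removes the difference between the groups, Rpl10l had a correlation of 0.992 with Cyp24a1 and ranked 16. With so few arrays, centred correlations this high can arise by chance among 33535 probes, so this rank does not show a link between the 2 genes. The 8 highest centred correlations were between 0.995 and 0.999, all of probes with no gene name here, and 0 of them were among the 8 above. Of these, 4 were lower and 4 higher in LBW kidneys, by log2 differences from -0.49 to 0.43. Both kinds of correlation rest on 6 arrays and are given as a description, with no p.

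Genes that make, carry or sense vitamin D or move calcium and phosphate were not set beside Cyp24a1. Of 36 such genes listed, among them Cyp27b1, Cyp2r1, Cyp27a1, Vdr, Rxra, Lrp2, Cubn, Pth1r, Kl, Fgfr1, Trpv5, Calb1, S100g, Slc34a1 and Slc34a3, 0 were named by the study's list, and they are not analysed here. Cyp24a1 was the only cytochrome P450 gene with a Cyp symbol on that list. Of 48 markers of kidney, blood, liver and other cell types, 2 were named on it: Alb and Lyz2. The labelled tissue was therefore not checked against proximal tubule markers.

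Both markers were on the list because they differed between the groups. Lyz2, a lysozyme of macrophages and neutrophils, had normalized log2 levels of 6.50, 7.29 and 7.17 in controls 1, 2 and 3 and 5.45, 5.84 and 5.93 in LBW 1, 2 and 3. Its control mean was 6.99 ± 0.42 and its LBW mean 5.74 ± 0.25 (SD, n = 3 each), a log2 difference of -1.25. It was lower in LBW kidneys as Cyp24a1 was, but within the groups its ranking was different, with control 1 and LBW 1 lowest. Alb, the plasma protein albumin made by the liver, was well above background on 3 of 3 LBW arrays and 0 of 3 control arrays. Its normalized log2 levels were 4.12, 3.74 and 3.50 in LBW 1, 2 and 3, and no fold is given against controls that were not well above background. The part of leukocytes or of plasma protein transcripts in the Cyp24a1 difference was not tested.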

How the data were processed

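Kidney RNA of 3 LBW and 3 control rats was measured on one-colour arrays. Per the submitters' notes, images were read with Agilent Feature Extraction 10.7.1.1. For every spot the authors deposited a background-subtracted, detrended intensity, its error, raw mean and background intensities, and flags for spots well above background and for outliers. A table of log2 values, which the authors had quantile normalized, was also deposited and served as an alternative. Their column medians were all 6.88, so they are levels and not centred values, and each column correlated with its own array at 0.999 or more across probes.

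The processed intensities of 61411 non-control spots were quantile normalized and log2 transformed with a floor of 1. Spots marked as outliers (570 to 646 per array) were dropped, and the remaining spots of each probe were averaged. No spot was saturated, and between 79.9% and 83.6% of spots were well above background. A probe counted as well above background where at least a 0.5 share of its spots did. The test was limma 3.58.1, run in R 4.3.3 on the 33608 probes that passed on every array of either group. It was two-sided, Benjamini-Hochberg adjusted p values covered all these probes, and it served for the background shares. The code was tested on simulated data first. Other values used Python 3.11.15, numpy 2.4.6 and pandas 2.3.3, and plots matplotlib 3.10.9.

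Members and lists were chosen with earlier results of these data known. Genes named are every Cyp24a1 probe, the vitamin D list, the nearest 2 genes on each side, markers, other Cyp genes of the study's list, and the 8 probes most like Cyp24a1 by either correlation where a name was given. Alb and Lyz2 were named as the only markers matched, after their values were seen. Tfrc and Usp18, the surrounding spots, the comparison of genes with several probes and that of SDs were also chosen after the data were seen. Gene names came only from the study's lists of changed RNAs.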

Additional observations from a re-analysis of the deposited data

How the results depend on the processing

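For each Cyp24a1 probe, 13 of 14 alternatives moved the log2 difference by less than the SD between replicates. That SD was wide, 0.83 for A_44_P235892 and 0.65 for A_64_P139422. Among them, keeping outlier spots, a floor of 5 and a replicate block could not change it, and since the groups did not overlap, leaving out 1 array could not turn its sign. The exception was normexp background correction with an offset of 50, which gave -0.71 for A_44_P235892 and -0.83 for A_64_P139422. The cause was not tested. With single arrays left out, the log2 difference was between -2.56 and -1.65 for A_44_P235892 and between -2.22 and -1.46 for A_64_P139422. On LBW 3 the raw mean of A_44_P235892 was 1.47 times the local background, which limits its level there.

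The number of probes called by limma at an adjusted p under 0.05 was 48 of 33608, and it moved far more. It was 99 with normexp, 3 with no filter on dim probes, 18 with probes well above background on at least 1 array, 2 with the methods' t-test, 182 with a trended and robust variance, 7 with slide row as a block, and 229 at a fold change of at least 2 with an unadjusted limma p of at most 0.05. At that fold with the p of the methods' t-test, it was 169. With single arrays left out it was between 3 and 25: 25 without control 1, 10 without control 2, 4 without control 3, 9 without LBW 1, 4 without LBW 2 and 3 without LBW 3. Another 4 alternatives stayed within 1.5 times of it. The cause was not tested.

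The labels do not say that rats with the same replicate number were paired. The deviations of same-numbered arrays correlated at 0.030, 0.059 and -0.014 across probes, and 2 of 3 controls correlated best with the LBW array of their own number. These values cannot decide whether the rats were paired, since a pairing that touched few probes would hardly move them. With a replicate block, limma called 0 probes (4839 at an unadjusted p under 0.05, against 5048 by limma without the block).

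The same alternatives for the vitamin D list and the cell type markers were not run, since 0 of 36 and 2 of 48 of their genes were matched to a probe and both markers had been chosen by this contrast.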
